A study of Drosophila melanogaster with 36 samples.

Results

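Homothorax (Hth) regions that the Hox proteins Dfd, Ubx and Abd-B did not bind were studied in Kc167 cells. This is a Drosophila line related to hemocytes, which are the fly's blood cells. A region of the line that expressed Hth without a Hox protein was taken when it shared no base with any region of the 10 lines that expressed Dfd, Ubx or Abd-B. The other Hox proteins of the fly were not among these lines, so "without Hox" below refers to Dfd, Ubx and Abd-B only. This left 661 of 8998 Hth regions, 7.35% (95% exact binomial interval 6.82 to 7.91), out of 112270 regions listed for all 12 lines. For comparison, 4404 of the 10750 regions of the Gcm line were free of Hox binding, 41.0% (40.04 to 41.9). Some of the 10 lines also expressed Hth, Gcm or both. With only the Dfd, Ubx and Abd-B lines without Hth or Gcm, 1103 Hth regions and 5718 Gcm regions were free of Hox binding. The members were chosen by the overlap of called regions, so neither these shares nor the distance to Hox regions was tested.

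All lines were stable transfectants with a copper-inducible plasmid, and anti-GFP ChIP-Seq was made on 2 biological replicates and 1 input of each, 24 ChIP and 12 input libraries in all. The eGFP tag was on Hth in the Hth line, on Gcm in the Gcm line and on the Hox protein in all others. The Hth line received 1 mM CuSO4 for 18 h and the Gcm line 2.5 mM for 24 h. The Hox lines were Dfd (2 mM, 24 h), Ubx (1 mM, 18 h), Abd-B (0.5 mM, 24 h), Dfd+Hth (2.66 mM, 22 h), Ubx+Hth (1 mM, 18 h), Abd-B+Hth (2.5 mM, 24 h), Dfd+Gcm (3.2 mM, 24 h), Ubx+Gcm (2.5 mM, 24 h), Dfd+Hth+Gcm (3.7 mM, 22 h) and Ubx+Hth+Gcm (2.5 mM, 24 h). Cells were sorted for GFP before ChIP. Each of these is a cell line made to express its protein or proteins from a plasmid. The authors adjusted copper and time per line and gated every sort on the same range of fluorescence, which they describe as physiological. The Hth line shared its induction with Ubx and Ubx+Hth, and the Gcm line with Abd-B+Hth, Ubx+Gcm and Ubx+Hth+Gcm, but the Hth and Gcm lines differed in it, so that induction and factor cannot be told apart between them. The paper gives mapped reads per library and peak numbers per replicate, which were not used here. The lists hold positions only and merge both replicates, so they show neither depth nor the spread between replicates. Every p below therefore compares lists of regions, which are not independent replicates, and none covers the variation between cultures.

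Hth is a TALE homeodomain protein that forms a complex with Extradenticle (Exd), another TALE protein, and carries it into the nucleus. Exd-Hox complexes read composite sites, and Hth on its own contacts a short core, TGACAG. In Kc167 cells, Hth came from the plasmid and Exd from the cells' own gene. Gcm is an unrelated zinc-binding factor of glia and hemocytes with its own octamer. Accessible chromatin in hemocytes often carries GATA sites, which the GATA factor Serpent reads, and promoters often carry the elements of DREF and M1BP.

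The sequences below show what the Hth core looks like in these regions. Each is 60 bases of the Release 6 genome (dm6, from RefSeq) around the core nearest the centre of a named region, read on the strand that carries the core, with every copy of the core on either strand in capitals. None of the windows overlaps an exon. They come from introns of Cph, nmo, Eip63E, fz, Ac13E and ey, and from a region that overlaps CG14042 and SP555 and lies within 2 kb of the collagen gene Col4a1.
Cph, chrX:7186032-7186091, minus strand: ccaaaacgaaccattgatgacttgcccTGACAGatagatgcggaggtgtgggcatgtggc
nmo, chr3L:7991532-7991591, minus strand: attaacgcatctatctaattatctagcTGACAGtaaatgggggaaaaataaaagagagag
Eip63E, chr3L:3528104-3528163, minus strand: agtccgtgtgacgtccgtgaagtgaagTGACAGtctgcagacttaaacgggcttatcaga
fz, chr3L:14352274-14352333, plus strand: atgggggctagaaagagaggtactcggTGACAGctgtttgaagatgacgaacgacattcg
Ac13E, chrX:15532697-15532756, plus strand: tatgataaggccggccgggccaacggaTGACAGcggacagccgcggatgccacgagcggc
Ac13E, chrX:15533654-15533713, minus strand: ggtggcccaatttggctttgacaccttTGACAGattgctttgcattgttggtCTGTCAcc
ey, chr4:715940-715999, plus strand: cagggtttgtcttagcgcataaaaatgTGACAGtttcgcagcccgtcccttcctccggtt
CG14042 and SP555 near Col4a1, chr2L:5037563-5037622, minus strand: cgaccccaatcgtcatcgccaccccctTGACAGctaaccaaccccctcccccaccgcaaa
The second Ac13E window holds a further core on the opposite strand, and the cores lie 70, 87, 9, 13, 7, 24, 47 and 10 bp from the centres of their regions, in the order shown. The 8 were picked, with their values seen, from 17 named regions with a core and an intronic or intergenic centre, in which this distance ran from 7 to 430 bp.

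The Hth core was more frequent in Hth regions without Hox than in Hth regions with Hox, in Gcm regions without Hox and in the sequence beside them. It was present on either strand of the central 200 bp in 209 of 661 Hth regions without Hox, 31.6% (28.1 to 35.3), against 1064 of 8337 Hth regions with Hox, 12.8% (12.05 to 13.5). The odds ratio was 3.16 (2.64 to 3.78), with an adjusted p of 3.66e-32 by Fisher's exact test, corrected by Benjamini-Hochberg over 48 motif comparisons, and the share was higher on 5 of 5 chromosome arms. Gcm regions without Hox held it in 304 of 4404 windows, 6.90% (6.17 to 7.69), which gave an odds ratio of 6.24 (5.07 to 7.66) and an adjusted p of 1.71e-62 by the same test. Windows 1000 bp to either side of the Hth regions without Hox held it in 113 of 1322 cases, 8.55%, with an odds ratio of 4.95 (3.81 to 6.43) and an adjusted p of 6.01e-36 by Fisher's exact test. The 200 bp around all 19252 protein-coding transcript starts held it in 8.53%.

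The core lay close to the centre of the regions. In the 50 bp bins on both sides of the centre, Hth regions without Hox had 12.6 and 14.1 cores per 100 regions, Hth regions with Hox 4.40 and 4.31, and Gcm regions without Hox 2.07 and 1.61. From 200 bp outwards, the counts of the Hth regions without Hox ran between 1.21 and 2.57 per 100 regions and bin. Among the members with a core in the window, the median distance of the nearest core from the centre was 26 bp. A pair of cores or more occurred in 44 of 661 Hth regions without Hox, 6.66%, against 101 of 8337 Hth regions with Hox, 1.21%, and 18 of 4404 Gcm regions without Hox, 0.409%.

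**Figure D1:**
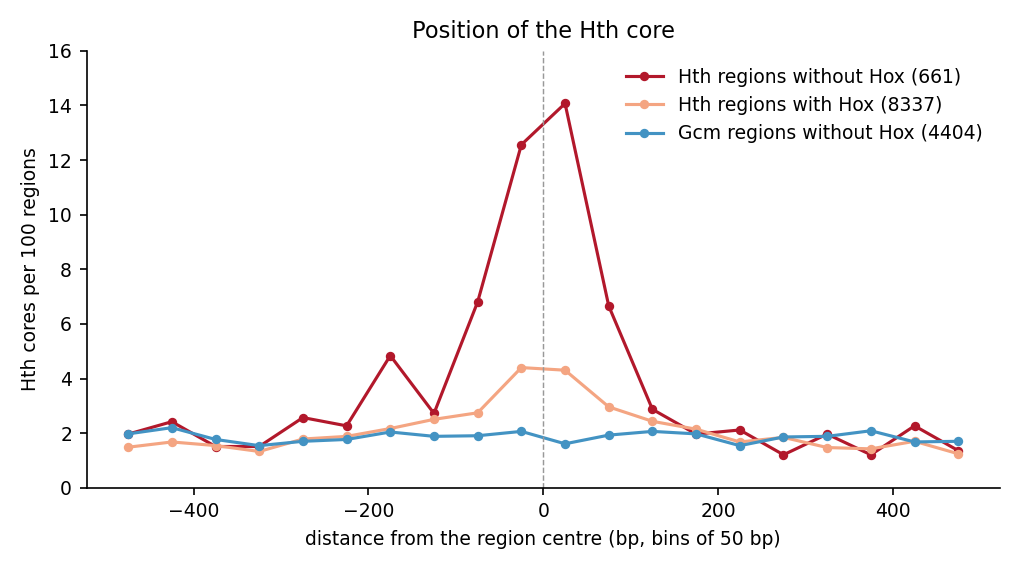
Position of the Hth core in 50 bp bins from 500 bp before to 500 bp after the region centre (x axis, bp), as cores per 100 regions (y axis), in Hth regions without Hox (661), Hth regions with Hox (8337) and Gcm regions without Hox (4404). The bins beside the centre reach 12.6 and 14.1 in Hth regions without Hox, against 4.40 and 4.31 in Hth regions with Hox, and the Gcm curve is flat.

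The size of the difference depended on the stretch searched. With the whole region searched, the core was found in 40.1% of Hth regions without Hox and in 31.7% of Hth regions with Hox, an odds ratio of 1.44 (exact p = 1.50e-05), and in 15.5% of Gcm regions without Hox, an odds ratio of 3.64. The median widths were 419 bp in Hth regions without Hox, 665 bp in Hth regions with Hox and 426 bp in Gcm regions without Hox. Among regions no wider than 634 bp, the median of the Hth list, the shares in the central 200 bp were 31.97% and 15.9%, an odds ratio of 2.48. GC content also differed, with 46.5% ± 7.2 in the central windows of Hth regions without Hox, 42.6% ± 7.3 in Hth regions with Hox and 51.2% ± 7.4 in Gcm regions without Hox (SD over regions). Among windows of 40% to 50% GC, the core was in 33.6% of Hth regions without Hox, 13.4% of Hth regions with Hox and 8.35% of Gcm regions without Hox.

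The last base of the core and the bases around it were examined as a description, chosen after the core had been counted. TGACAG was in 31.6% of central windows, 3.70 times its share in the windows to either side. TGACAT was 2.59 times, TGACAC 2.35 times and TGACAA 1.96 times as frequent at the centre as beside it. The same ratios in Hth regions with Hox were 2.14, 1.39, 1.604 and 1.43, and in Gcm regions without Hox 0.941, 0.902, 1.03 and 0.909. Read with 1 base on each side, the 263 cores of Hth regions without Hox were most often TTGACAGC (41), CTGACAGC (31) and GTGACAGC (27), and least often ATGACAGT (6). In Hth regions with Hox, ATGACAGT made up 5.53% of 1158 cores, against 2.28% of the cores in Hth regions without Hox, without a test.

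The joint Exd-Hth site, TGAT directly followed by TGACAG, was rare. It was in the central window of 6 of 661 Hth regions without Hox, 0.908%, against 17 of 8337 Hth regions with Hox, 0.204% (odds ratio 4.48, 1.44 to 11.96, adjusted p = 0.0148 by Fisher's exact test), and 1 of 4404 Gcm regions without Hox. Against Hth regions with Hox it was higher on 3 of 5 arms and lower on 2. Every joint site includes a core, found in 31.6% and 12.8% of the central windows of Hth regions without and with Hox. The comparison of the joint site is therefore not independent of that of the core, whose part in it was not tested. The share of the joint site did not pass the test against the windows to either side, where 4 of 1322 held it (adjusted p = 0.179, Fisher's exact test). The 6 regions lay at numb, an inhibitor of Notch signalling, at Vha16-1, at epsilonTry, at Sesn, near CG34289 and near the forkhead gene fd96Cb. The 3 shown lie outside exons, with the joint site in capitals, and were chosen after their values were seen.
numb, chr2L:9437321-9437380, minus strand: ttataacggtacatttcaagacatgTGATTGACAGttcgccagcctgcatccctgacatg
near CG34289, chr3R:23509541-23509600, minus strand: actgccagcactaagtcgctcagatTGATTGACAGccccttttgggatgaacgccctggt
near fd96Cb, chr3R:25096491-25096550, minus strand: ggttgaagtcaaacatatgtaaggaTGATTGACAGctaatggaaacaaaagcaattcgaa

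Hox motifs were less frequent than in Hth regions with Hox. The first group of 7-mers, TTTAT followed by GA, GG, TA or TG, of the kind bound by Abd-B, was in 85 of 661 Hth regions without Hox, 12.9%, against 1889 of 8337 Hth regions with Hox, 22.7% (odds ratio 0.504, 0.394 to 0.638, adjusted p = 4.99e-09, Fisher's exact test). The second group, TAATGA or TAATTA after a C or a T, of the kind bound by Dfd and Ubx, was in 48 Hth regions without Hox, 7.26%, against 1117 Hth regions with Hox, 13.4% (odds ratio 0.506, adjusted p = 7.70e-06, Fisher's exact test). The Exd-Hox octamers TGATTGAT, TGATTAAT and TGATTTAT were in 3.03% and 5.51% (odds ratio 0.535, adjusted p = 0.0148, Fisher's exact test). Both 7-mer groups were also less frequent than in the windows 1000 bp to either side, which held them in 25.0% and 16.1% (adjusted p = 9.50e-10 and 7.04e-08, Fisher's exact test). Those flanking windows had a GC content of 43.1% ± 8.9 and the centres of Hth regions with Hox 42.6% ± 7.3, below the 46.5% here. The part of GC content in the lower share of these AT-rich 7-mers was not tested in either comparison. Hth regions with Hox held the first and second group in 22.7% and 13.4%, against 23.5% and 15.2% in the windows beside them, without a test. The octamers were in 5.51% of Hth regions with Hox and in 4.26% of the windows beside them. In Gcm regions without Hox the 7-mers were in 13.6% and 9.24%, and the comparison with these passed the test for neither group (adjusted p = 0.733 and 0.1998, Fisher's exact test).

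**Figure D2:**
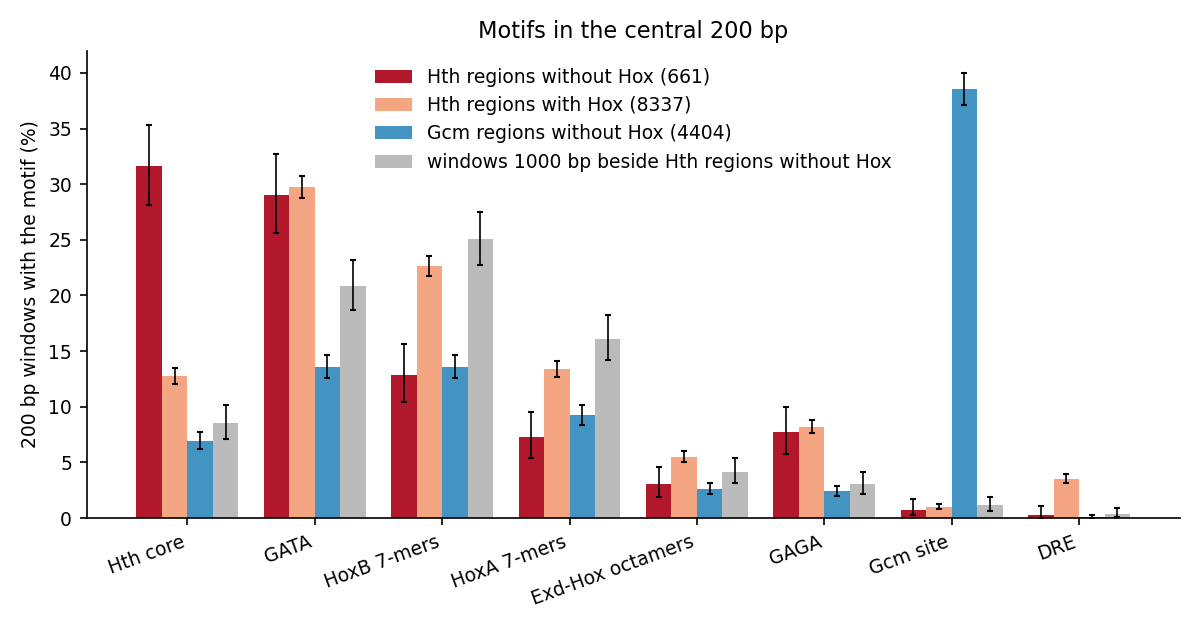
Share of central 200 bp windows (y axis, %) that hold each motif (x axis) in Hth regions without Hox (661), Hth regions with Hox (8337), Gcm regions without Hox (4404) and the 1322 windows beside the Hth regions without Hox, with 95% exact binomial intervals as error bars. The Hth core reaches 31.6% in Hth regions without Hox, against 12.8%, 6.90% and 8.55% in the others.

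GATA and GAGA motifs passed no test between Hth regions without and with Hox, and were more frequent in Hth regions without Hox than in Gcm regions without Hox. GATA sites (AGATAA or TGATAA) were in 192 of 661 Hth regions without Hox, 29.05%, against 29.7% of Hth regions with Hox (odds ratio 0.968, 0.809 to 1.16, adjusted p = 0.807, Fisher's exact test). They were more frequent than in Gcm regions without Hox, 13.6% (odds ratio 2.61, adjusted p = 2.16e-20, Fisher's exact test), and than in the flanking windows, 20.9% (odds ratio 1.55, adjusted p = 2.29e-04, Fisher's exact test). Windows 1000 bp beside the Gcm regions without Hox held GATA sites in 19.6%, above the 13.6% at their centres, without a test. Those centres had a GC content of 51.2%, against 46.5% in Hth regions without Hox, and its part in the GATA comparison was not tested. GAGAGAG, the repeat read by the GAGA factor, was in 7.72% of Hth regions without Hox, against 8.20% of Hth regions with Hox (odds ratio 0.935, 0.681 to 1.26) and 2.41% of Gcm regions without Hox (odds ratio 3.39, adjusted p = 9.46e-10, Fisher's exact test). GATA sites and the Hth core were together in 50 Hth regions without Hox, while 159 held the core only, 142 a GATA site only and 310 neither. None of the 16 motifs searched was in 178 of them, 26.9%.

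Promoter elements were less frequent than in Hth regions with Hox. The DREF element TATCGATA was in 2 of 661 Hth regions without Hox, 0.303%, against 292 of 8337 Hth regions with Hox, 3.502% (odds ratio 0.0836, 0.0101 to 0.306, adjusted p = 3.67e-07, Fisher's exact test). The M1BP element GGTCACAC was in 4 and 228 regions, 0.605% and 2.73% (odds ratio 0.216, adjusted p = 5.78e-04, Fisher's exact test). Gcm regions without Hox held them in 0.136% and 0.386%, and neither comparison with these passed the test (adjusted p = 0.409 and 0.484, Fisher's exact test). A transcript start lay within 500 bp of 22.5% of Hth regions without Hox and of 51.1% of Hth regions with Hox. The part of this in the lower shares of both elements was not tested. The CACGTG E-box was in 4.69% of Hth regions without Hox, 2.81% of Hth regions with Hox and 2.77% of Gcm regions without Hox (adjusted p = 0.0287 and 0.0272, Fisher's exact test), but it was higher on only 2 of 5 arms in the first comparison. AP-1 (TGACTCA), Ets (CCGGAAGT), STAT (TTCCNGGAA), Runx (TGTGGT) and Sd (ACATTCC) sites passed no test against Hth regions with Hox (adjusted p from 0.205 to 0.926, Fisher's exact test). AP-1 sites were in 3.18% of Hth regions without Hox and 1.68% of Gcm regions without Hox (odds ratio 1.92, adjusted p = 0.0312, Fisher's exact test). No STAT site was found in the 661 windows.

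Transcript starts were less frequent near Hth regions without Hox than near Hth regions with Hox, and more frequent than near Gcm regions without Hox. A start of a protein-coding or ncRNA transcript lay within 500 bp of the centre of 149 of 661 Hth regions without Hox, 22.5% (19.4 to 25.9), against 4260 of 8337 Hth regions with Hox, 51.1% (50.02 to 52.2). The odds ratio was 0.279 (0.229 to 0.337, adjusted p = 1.40e-47 over 3 comparisons of position, Fisher's exact test), lower on 5 of 5 arms. Hth regions without Hox lay within 500 bp of a start more often than Gcm regions without Hox, of which 502 of 4404 lay within 500 bp, 11.4% (odds ratio 2.26, 1.83 to 2.79, adjusted p = 9.30e-14, Fisher's exact test). The median distance of the centre to a start was 2084 bp in Hth regions without Hox, 460 bp in Hth regions with Hox and 2446 bp in Gcm regions without Hox. With 200 bp in place of 500 bp the odds ratio to Gcm regions was 3.95, and with 1000 bp 1.48. With the Hox lists at q 1e-10, the odds ratio was 0.625 to Hth regions with Hox and 3.45 to Gcm regions without Hox, and without the Abd-B lines it was 0.531 and 3.52.

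Introns held most of the regions. The centre lay in an intron in 348 of 661 Hth regions without Hox, 52.6%, against 46.1% of Hth regions with Hox (odds ratio 1.30, adjusted p = 0.00273 over 12 comparisons of features, Fisher's exact test) and 30.8% of Gcm regions without Hox (odds ratio 2.50, adjusted p = 1.73e-26, Fisher's exact test). The 5′ UTR held 54 centres, 8.17%, against 21.2% of Hth regions with Hox and 1.91% of Gcm regions without Hox (odds ratios 0.330 and 4.58, adjusted p = 7.88e-18 and 1.53e-14, Fisher's exact test). Coding exons held 54 centres too, 8.17%, against 3.63% of Hth regions with Hox and 42.6% of Gcm regions without Hox (odds ratios 2.36 and 0.120, adjusted p = 5.85e-07 and 2.07e-76, Fisher's exact test). Intergenic centres made up 25.7%, against 24.4% in Hth regions with Hox (adjusted p = 0.493) and 20.7% in Gcm regions without Hox (adjusted p = 0.00742, Fisher's exact test). The share in 3′ UTRs and in exons of ncRNA passed no test. Of the Hth regions without Hox, 161 lay on 3R, 131 on 2R, 129 on 3L, 127 on X, 110 on 2L and 3 on chromosome 4. None of 12 arm comparisons passed the test (adjusted p of 0.957 or more, Fisher's exact test).

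**Figure D3:**
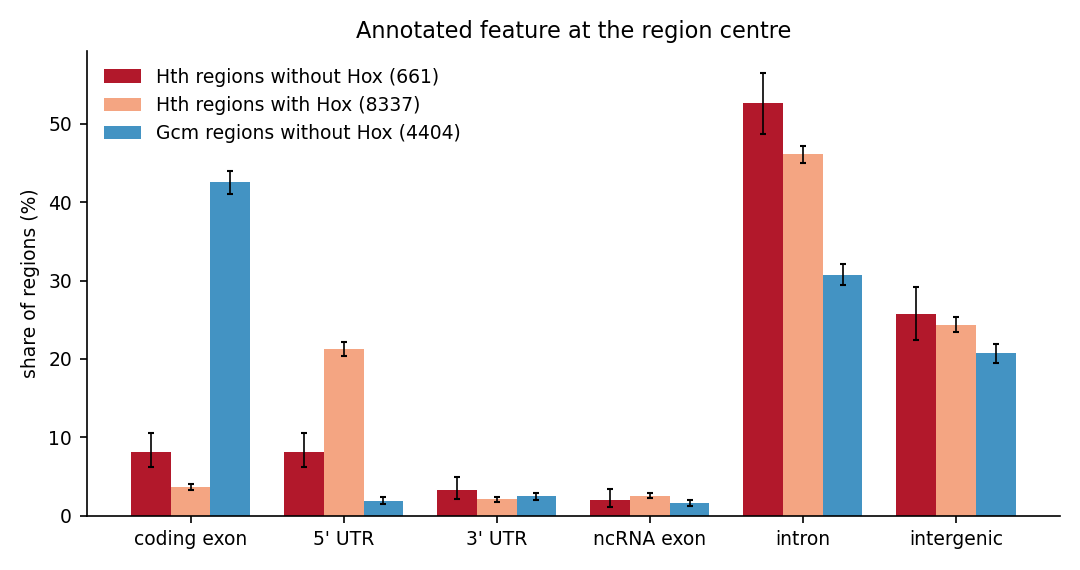
Annotated feature at the region centre (x axis) as a share of regions (y axis, %) in Hth regions without Hox (661), Hth regions with Hox (8337) and Gcm regions without Hox (4404), with 95% exact binomial intervals as error bars. Introns hold 52.6% of Hth regions without Hox, and coding exons hold 42.6% of Gcm regions without Hox.

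Gcm binding was less frequent in Hth regions without Hox than in Hth regions with Hox. Of the Hth regions without Hox, 78 of 661 overlapped a region of the Gcm line, 11.8% (9.44 to 14.5), against 3617 of 8337 Hth regions with Hox, 43.4% (odds ratio 0.175, 0.136 to 0.222, adjusted p = 4.32e-65, Fisher's exact test), lower on 5 of 5 arms. Wider regions meet others more often, and the widths differed between the groups. Among regions of 350 to 500 bp the shares were 9.88% and 23.7%, an odds ratio of 0.352 (exact p = 2.81e-09), and among those no wider than 634 bp 11.6% and 27.3%, an odds ratio of 0.350. With the Hth and Gcm lists at q 1e-10 the shares were 2.34% and 29.6%, an odds ratio of 0.0572. It was 0.282 with the Hox lists at q 1e-10 and 0.283 without the Ubx lines. The rule also counted Dfd+Gcm, Ubx+Gcm, Dfd+Hth+Gcm and Ubx+Hth+Gcm, which express Gcm themselves. Gcm overlap was therefore not independent of the choice of members. With only the Hox lines without a cofactor, the shares were 19.6% and 44.1%, an odds ratio of 0.309. The part of the lines that express Gcm in the lower share was not tested.

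The Hth core passed no test between members with and without Gcm. It was in 24 of 78 that overlapped Gcm, 30.8%, against 185 of 583 that did not, 31.7% (odds ratio 0.956, 0.547 to 1.63, adjusted p = 0.898 over 3 comparisons, Fisher's exact test). The Gcm octamer (ATACGGGC, ATACGGGT, ATGCGGGC or ATGCGGGT) was in 4 of the 78, 5.13%, against 1 of the 583, 0.172% (odds ratio 31.5, 3.03 to 1552, adjusted p = 0.00247, Fisher's exact test). By contrast, 1697 of 4404 Gcm regions without Hox held it, 38.5%. The 4 regions lay at ush, Myo31DF, ps and Appl, and the other one near CG13894. They were named after their values were seen, and the intronic site at Appl, the neuronal amyloid precursor homologue, is shown with the Gcm octamer in capitals.
Appl, chrX:548436-548495, plus strand: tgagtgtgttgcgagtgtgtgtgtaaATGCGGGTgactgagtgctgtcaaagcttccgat

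The shares were also counted by the number of Hox lines that bound an Hth region, as a description. The Hth core was in 31.6% of regions with none, 20.9% with 1 line, 21.9% with 2, 17.5% with 3, 16.1% with 4, 15.7% with 5, 12.7% with 6, 11.6% with 7, 12.8% with 8, 10.3% with 9 and 7.23% with all 10. The order was thus not strict, with 2 lines above 1 and 8 above 7. Overlap with Gcm ran the other way, with 11.8% at 0 lines, 17.9% at 1, 30.6% at 5 and 71.0% at 10. Transcript starts within 500 bp were at 22.5%, 34.35%, 50.8% and 48.9% of the same classes, with the highest share, 64.6%, at 9 lines. The 7-mers of either Hox group were in 18.9% at 0 lines, 20.7% at 1, 36.7% at 5 and 35.3% at 10. The median width was 419 bp at 0 lines, 452 bp at 1, 533 bp at 5 and 1160 bp at 10, and its part in these steps was not tested. Dfd+Gcm, Ubx+Gcm, Dfd+Hth+Gcm and Ubx+Hth+Gcm are among the 10 lines and express Gcm. The number of lines is therefore not independent of Gcm overlap.

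Regions with exactly 1 Hox line are the nearest neighbours of the regions without Hox, and they differed from them in a comparison chosen after the data were seen. The Hth core was in 31.6% of the 661 regions without Hox, against 89 of 425 regions with 1 line, 20.9% (odds ratio 1.75, 1.30 to 2.35, adjusted p = 1.85e-04 over 3 comparisons, Fisher's exact test). Gcm overlap was 11.8%, against 17.9% (odds ratio 0.614, adjusted p = 0.00571, Fisher's exact test), and starts within 500 bp were at 22.5%, against 34.35% (odds ratio 0.556, adjusted p = 7.85e-05, Fisher's exact test). Each held on 5 of 5 arms, but Gcm overlap was not independent of the grouping, since some of the counted lines express Gcm. The single line was Abd-B in 58.4% of the 425, Ubx+Gcm in 40, Abd-B+Hth in 39 and Ubx+Hth in 29, while the remaining 6 lines each accounted for fewer. Abd-B and Abd-B+Hth also had the longest lists, with 13511 and 13741 regions, against 4885 to 10374 in the other Hox lines. By the paper's read counts, depth also differed between the lines, and its part in this was not tested.

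**Figure D4:**
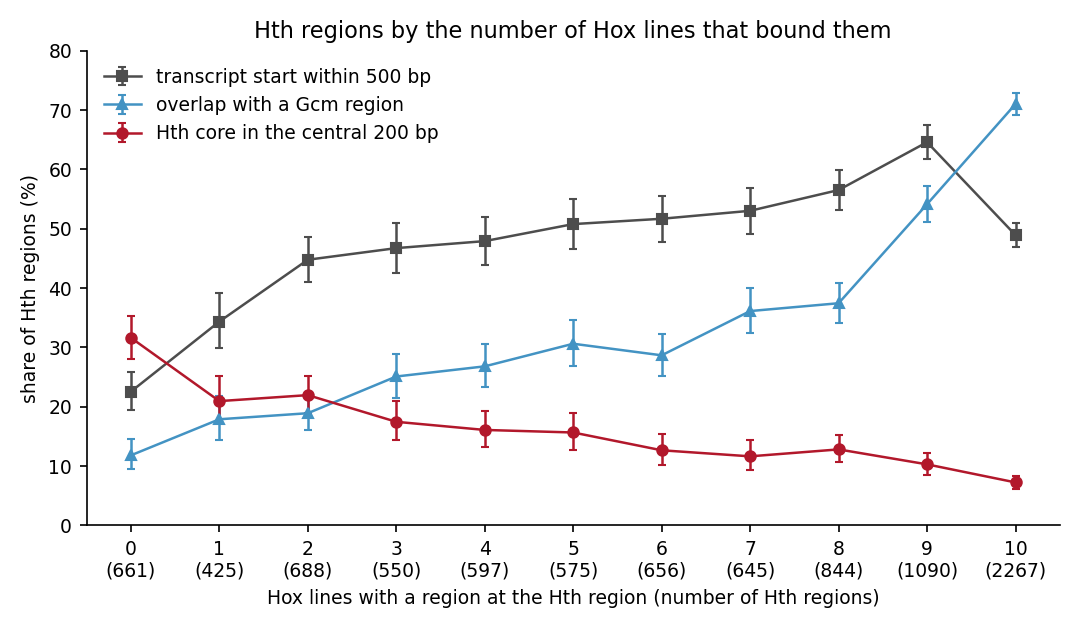
Share of Hth regions (y axis, %) with an Hth core in the central 200 bp, an overlap with a Gcm region or a transcript start within 500 bp, by the number of Hox lines with a region there (x axis, 0 to 10, number of Hth regions in parentheses), with 95% exact binomial intervals. The Hth core is at 31.6% with 0 lines and 7.23% with 10, and Gcm overlap is at 11.8% and 71.0%. Some of the 10 lines express Gcm, so their number is not independent of Gcm overlap.

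As a description, with no test, regions without Hox were narrower and less often retained at the stricter threshold, both of which relate to the calling of regions that chose them. Their median width was 419 bp (259 to 1662), against 665 bp (255 to 7109) in Hth regions with Hox and 426 bp in Gcm regions without Hox. At q 1e-10 the Hth list still covered 220 of 661, 33.3% (29.7 to 37.0), against 65.6% of Hth regions with Hox. Within the regions without Hox, 83 of the 220 retained at q 1e-10 held the Hth core, 37.7%, against 126 of the other 441, 28.6%, a difference that did not pass the test (adjusted p = 0.0627 over 3 comparisons, Fisher's exact test). Neither Gcm overlap (11.4% and 12.02%) nor starts within 500 bp (23.2% and 22.2%) passed it.

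Many of these regions lay beside Hox binding. The gap to the nearest Hox region had a median of 746 bp, a lower quartile of 276 bp, an upper quartile of 2406 bp and a maximum of 31856 bp. A Hox region lay within 1000 bp of 370 of the 661, 56.0%, and more than 10 kb away from 32. The nearest one was of the Abd-B line for 37.2% and of Abd-B+Hth for 15.7%, the Hox lines with the longest lists, 13511 and 13741 regions. Just inside the limit, 5 regions had gaps of 4, 5, 8, 11 and 12 bp and widths of 455 to 673 bp, and just outside it the smallest overlaps were 7, 12, 12, 12 and 15 bp, in regions of 302 to 773 bp. The 291 Hth regions with no Hox region within 1000 bp held the Hth core in 33.7%, and a transcript start within 500 bp in 27.8%. Of the 4404 Gcm regions without Hox, 1462 had a Hox region within 1000 bp, 33.2%, and 533 had none within 10 kb. Their median gap was 1970 bp.

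**Figure D5:**
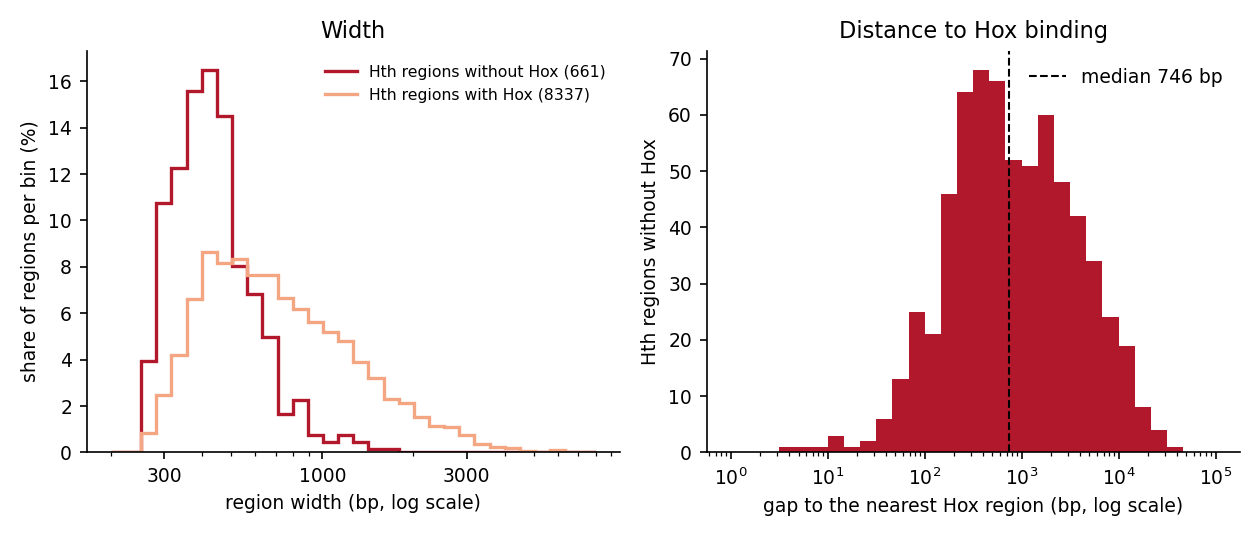
Left, region width (x axis, bp, log scale) as a share of regions per bin (y axis, %) in Hth regions without Hox (661) and Hth regions with Hox (8337). Right, gap to the nearest Hox region (x axis, bp, log scale) for the 661 Hth regions without Hox (y axis, number of regions), with the median of 746 bp as a dashed line.

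Of the 10 widest regions that were also in the Hth list at q 1e-10, 7 had an intronic centre. The widest covered 1662 bp in an intron of dally, a cell-surface proteoglycan that assists Dpp and Wg signalling (chr3L:8850712-8852373), and overlapped Gcm. An intronic region at ITP, which encodes a neuropeptide, and CG4622 covered 1494 bp (chr2R:24544406-24545899), 61 bp from an Abd-B region. One of 1370 bp in Cph, which encodes a zinc finger factor, held a pair of Hth cores in its central window and lay 7725 bp from the nearest Hox region (chrX:7185447-7186816). The region in nmo, a kinase of planar polarity and Wnt signalling, covered 1324 bp (chr3L:7990813-7992136) and held 2 cores, 1 of them in the central window and 87 bp from the centre. An intergenic region of 1286 bp on chr2L (12949454-12950739) held 6 copies of GAGAGAG. Others lay at cv-c (1243 bp), at betaTub60D, a tubulin (1229 bp), at the cuticle gene Cpr49Ac (1204 bp) and at Eip93F, an ecdysone-induced factor (1129 bp). Of these 10 wide regions, 2 held the core in the central 200 bp and 7 anywhere, 9 held a Hox 7-mer or octamer somewhere in their length, and 2 overlapped Gcm. Over all 661 regions, the core was in 31.6% of central windows and 40.1% of whole regions, and 11.8% overlapped Gcm. The 10 were 1129 bp or wider, against a median of 419 bp, so the counts over whole regions cannot be read apart from width.

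The 3 regions farthest from Hox binding were 375, 418 and 603 bp wide, against a median of 419 bp for all 661. They lay in an intron of CG9380 (chr2R:25215167-25215541, 31856 bp from a Hox region), 1808 bp from a start near CG43075 (chrX:15219160-15219577, 30606 bp) and in an intron of lov, a BTB domain gene (chr2R:25115274-25115876, 29104 bp). None of these 3 was in the list at q 1e-10 or held an Hth core, and the CG9380 and lov regions overlapped Gcm.

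Of 13945 protein-coding genes, 765 had an Hth region without Hox in the gene or within 2 kb, 5.49%, while 688 genes had just 1, 59 had 2, 15 had 3 and 3 had 4. By the same distance, 55.1% of the genes were near an Hth region with Hox and 31.65% near a Gcm region without Hox. The 765 genes were long, with a median of 7.10 kb, against 2.17 kb over all protein-coding genes. The median was 2.93 kb over the genes near an Hth region with Hox. The 3 genes with 4 regions were Eip63E, a cyclin-dependent kinase, fz, the Frizzled receptor of Wnt and planar polarity signalling, and Ac13E, an adenylyl cyclase. Their spans were 94.8, 94.3 and 43.4 kb, and they also held 8, 5 and 8 Hth regions with Hox. In Ac13E the 4 regions had intronic centres (chrX:15528713-15529354, chrX:15532558-15532909, chrX:15533497-15533918 and chrX:15537321-15537782), and 3 of these held 1, 1 and 3 Hth cores in the central window. In Eip63E 2 of 4 and in fz 1 of 4 held a core there. Msp300, a nesprin of the nuclear envelope and muscle, and MESR3 were the first by position of the 15 genes with 3 regions.

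The region in Ac13E with 3 cores was among 9 regions that held 3 or 4 cores in the central 200 bp, named here after their values were seen. The other ones lay in introns of CG4297, CenG1A, Ten-m, a cell-surface protein of synapse formation, and mdu, in the 5′ UTR of Pits, near UQCR-11, and in intergenic stretches of 2R and 3R with no protein-coding gene within 2 kb. The Pits and UQCR-11 regions held 4 cores each, and both overlapped Gcm. The widths of the 9 ran from 326 to 426 bp.

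Lists of genes known in hemocytes or as partners and targets of Hth were read against the 5.49% of all protein-coding genes, as counts with no test. Among transcription factors of hemocytes, 3 of 10 had a region, namely ush, a cofactor of GATA factors, kn, the EBF factor Collier, and Stat92E. Of 15 plasmatocyte genes 3 had one, Pxn (peroxidasin), Col4a1 (collagen IV) and Ppn (papilin). The Pxn region lay 142 bp from a start in the 5′ UTR, held 4 GATA sites in its central window and was 69 bp from an Abd-B region. The region near Col4a1, which overlaps CG14042 and SP555, held 1 Hth core and 1 GATA site and overlapped Gcm. The median lengths of the genes in these lists were 17.5 and 8.13 kb. Those of the TALE and Hox, eye and limb, muscle and neuronal lists below were 17.2, 15.4, 16.8 and 27.2 kb, against 2.17 kb over all protein-coding genes, so that none of these shares can be read apart from gene length.

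Among TALE and Hox genes, 3 of 15 had a region. One of 478 bp lay in an intron of hth itself (chr3R:10567129-10567606), 89 bp from an Abd-B+Hth region and with no Hth core. One at exd, in the 5′ UTR of its neighbour CG8939 (chrX:15996892-15997227), overlapped Gcm. The third, at Antp, a Hox gene of the thorax, was in the list at q 1e-10 and held 1 Hth core (chr3R:6903340-6903960). Since the plasmid of the Hth line carries hth, the authors removed regions over the exons it carries, and the hth region here is intronic.

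Genes of the eye and limb that act with or under Hth had a region in 5 of 24 cases. The Pax6 gene ey held a region of 848 bp with 4 Hth cores, 2 of them in the central window (chr4:715593-716440), also in the list at q 1e-10. The TEAD factor gene sd, whose product binds DNA with the growth regulator Yorkie, had 2 regions, of 834 bp (chrX:15806974-15807807) and 570 bp (chrX:15817973-15818542), both at q 1e-10 and neither with an Hth core. Intronic regions without a core lay at ss, ct and bab1, which encode factors of antenna, sense organ and leg development. Among copper genes 2 of 8 had one, MtnD, whose region was also the one near Stat92E, and ATP7, while MtnA, the source of the plasmid promoter, had no Hth region within 2 kb although 10 of the 12 lines had one there. The copper genes had a median length of 1.28 kb, against 2.17 kb over all protein-coding genes.

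Markers of other cell types served as a background. Of 10 muscle genes 2 had a region, Mhc and bt, and of 10 neuronal genes 6 did, elav, brp, para, ChAT, VAChT and futsch, with 1 region shared by ChAT and VAChT. Over the 7 lists, 24 genes had 24 regions, of which 5 held an Hth core in the central window and 5 overlapped Gcm. Over all 661 regions, the shares were 31.6% for the core and 11.8% for Gcm overlap.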

How the data were processed

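Per the authors, reads were aligned by Bowtie 1.2.2 to dm6, and MACS2 2.1.1.20160309 called peaks per replicate, relative to that line's input, at q 1e-2 and q 1e-10. Peaks at plasmid-borne exons were dropped and overlapping peaks of both replicates were merged. The deposited lists hold start and end positions only. Lists at q 1e-2 were used unless stated, and the Hth list was identical in the tables that hold it.

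An overlap of 1 bp counted as binding. No region ended beyond a chromosome of Release 6, whose sequence came from RefSeq and whose annotation came from Ensembl release 115. Shares were compared with two-sided Fisher's exact tests in scipy 1.17.1 with Benjamini-Hochberg correction, and carry 95% exact binomial intervals, which cover counting error only. Overlaps, motif searches and tests were checked on simulated data, and bedtools 2.31.1 gave the same counts in 3 of 3 comparisons.

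Members, motifs and gene lists were chosen with earlier results of these data known. The rule named the 10 widest regions at q 1e-10, the 5 genes with most regions, the 3 regions farthest from Hox, and listed genes with a region. One of the 10 widest is not reported here by name. Alternatives were other thresholds, overlap rules, Hox lines, windows, distances, widths and arms.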

Additional observations from a re-analysis of the deposited data

How the results depend on the processing

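The number of Hth regions without Hox depended on the thresholds and on the lines counted. It was 256 with the Hth list at q 1e-10 and 1917 with the Hox lists at q 1e-10, while all lists at q 1e-10 gave 860. It was 291 with no Hox region allowed within 1000 bp, 1103 with the Hox lines without a cofactor only and 1373 without the Abd-B lines. The other alternatives kept it between 500 and 899. All 5 comparisons of shares kept their direction and their side of the threshold in 99 of 99 alternatives, with 4 settings (transcript starts, GC content, coding sequence and width) chosen after seeing the data. Their odds ratios ran from 0.0572 to 0.352 for Gcm overlap, from 0.229 to 0.647 and from 1.48 to 3.95 for transcript starts against Hth regions with Hox and Gcm regions without Hox, and from 1.44 to 3.51 and from 3.64 to 9.15 for the Hth core against the same. No paired analysis was possible because the lists merge both replicates and the lines have no library number in common. Leaving out each replicate could not be run for the same reason. Gcm overlap was compared between groups whose choice counted lines that express Gcm, except with the Hox lines without a cofactor only. Shares rest on called regions, so weak Hox binding below the threshold counts here as none.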
